A study of Homo sapiens with 24 samples.

Results

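The clustered protocadherins are cell adhesion genes that lie side by side on the long arm of chromosome 5, and they were taken here as every gene on chromosome 5 whose symbol places it in the alpha, beta or gamma cluster. The rule found 54 genes among the 60675 genes of the count files, with 16 in the alpha cluster (PCDHA1 to PCDHA14, PCDHAC1 and PCDHAC2), 16 in the beta cluster (PCDHB1 to PCDHB16) and 22 in the gamma cluster (12 of type A, 7 of type B and PCDHGC3, PCDHGC4 and PCDHGC5). All 54 lie on the plus strand between positions 140786136 and 141512981 of the GRCh38 build. RNA-seq had been made from 2 human kidney cell lines, ACHN, a renal cancer line that the labels call ccRCC, and HK2, a proximal tubular epithelial line, each in 4 groups of 3 libraries. The groups were shNC (a control hairpin), shKDM5C, shYY1 and Dsh, the double knockdown of KDM5C with YY1.

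Each group carried a short hairpin RNA delivered by lentivirus and kept under puromycin, so the controls carried a vector too. Dsh cells were made by adding a GFP-marked KDM5C hairpin to cells already depleted of YY1 and were then also selected on green fluorescence. Which of the hairpins to each gene was used for sequencing is not given in the sources used here, and nothing says that the 3 libraries of a group came from separate infections, so p-values measure the spread between these libraries, which may be technical. KDM5C, a histone H3 lysine 4 demethylase, was at 70.8 ± 0.56 CPM (the share of a library's read pairs, scaled to a common library size; SD, n = 3) in ACHN shNC and 43.1 ± 1.36 in shKDM5C, and at 191 ± 3.16 in HK2 shNC and 56.3 ± 19.2 in shKDM5C. YY1, a zinc finger transcription factor, was at 139 ± 3.90 in ACHN shNC and 76.8 ± 3.57 in shYY1, and at 208 ± 6.38 in HK2 shNC and 63.9 ± 2.82 in shYY1. In Dsh cells the means of KDM5C and YY1 were 40.6 and 97.0 in ACHN and 68.2 and 74.2 in HK2. Library totals ran from 15926561 to 24272298 read pairs. HK2 shKDM5C replicate 1, the shallowest library, stood apart from its group (KDM5C at 34.1 CPM against 67.6 and 67.1), so fold changes of that group are given with and without it. KDM5C itself was higher in shYY1 than in shNC in both lines (log2 fold change ± SE of 0.34 ± 0.04, adjusted p = 1.14e-08 in ACHN and 0.35 ± 0.05, adjusted p = 1.54e-05 in HK2, edgeR). The 7 renal epithelial markers, PAX8 and KRT8 among them, were all above 1 CPM on average in both lines, whereas only 2 of 10 proximal tubule markers were (GGT1 and SLC5A2), and SLC22A6 was at 0 in all 24 libraries.

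Clustered protocadherins are single-pass cadherins that bind the same isoform on a neighbouring cell, and in neurons each cell switches on its own small set, which gives it a surface identity used in self-recognition. In the alpha and gamma clusters each variable first exon, with its own promoter, encodes the extracellular and transmembrane part of the protein and is spliced to constant exons that encode a shared cytoplasmic tail, while each beta gene is a single exon. Promoter choice is known to depend on CTCF and cohesin, which bind a conserved element in most of these promoters and join it to distant enhancers, and on DNA methylation and the repressor SMCHD1. The C-type genes at the 3′ end of the alpha and gamma clusters are known to be expressed more constitutively than the alternate A and B types.

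The sequences show how like these promoters are within a cluster and why reads of the last exons cannot be given to 1 gene. RefSeq (GRCh38.p14) has 52 promoter windows for 47 of the 54 genes, each from 250 bases before the transcription start to 50 after it, and all 52 equal the genome at their coordinates. PCDHA3, PCDHA13, PCDHA14, PCDHB6, PCDHB11, PCDHGA12 and PCDHGC5 had no entry. The 4 letters CGCT, the core of the conserved element, were found on either strand in 98.1% of the 52 windows, with PCDHA9 the only gene without them, and in 70.0% of all 35116 promoter windows of the genome. The RefSeq start of PCDHA9 lies 919 bases after its start in the count files, so its lack of the core describes that window only. The 30-base stretches that follow run 5′ to 3′ on the plus strand, with that core, or the 4 bases in its place, in capitals. They were chosen to set alpha genes, silent or nearly so, beside the beta and gamma genes that the results turn on.
PCDHA1 (chr5:140786089-140786118): ggccacatgatgtCGCTgtacaccacaaag
PCDHA7 (chr5:140834175-140834204): ggccacatgatgtCGCTctttaccgcaaat
PCDHA8 (chr5:140841133-140841162): agccacatgatgtCGCTgtctaccaagaag
PCDHB8 (chr5:141177780-141177809): ggacccgtggtggCGCTgcaggataagaag
PCDHB13 (chr5:141213868-141213897): ggacgcgtggtggCGCTgcaggataagaag
PCDHB14 (chr5:141223266-141223295): agacacatggtggCGCTacaggataagacg
PCDHB16 (chr5:141182313-141182342): gaacgcgtggtggCGCTgcaggttaagatg
PCDHGA6 (chr5:141373838-141373867): ggactctaagcgtCGCTgttgaccaacctg
PCDHGA7 (chr5:141382652-141382681): ggactcacagcgcCGCTgttcaccaaccag
PCDHGB5 (chr5:141397866-141397895): tgactctgggcgcCGCTgttggccaaagtg
PCDHGB7 (chr5:141417586-141417615): agcctctgggcgcCGCCgtcggccagtgca
PCDHGC3 (chr5:141475883-141475912): ggactctgtgtgcCGCTgtcggccaatgaa

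In PCDHGB7 the place of the core reads CGCC; that stretch differs at 1 of 30 bases from the stretch of PCDHGB6, and the CGCT of its window lies outside it. So short a string can stand in a window away from the element, as it does there. The letters before the core differed by cluster. GATGTCGCT was found in 9 of 13 alpha windows and in no beta or gamma window, GGTGGCGCT in 13 of 14 beta windows and in no alpha or gamma window, and GCGCCGCT in 13 of 25 gamma windows and in no alpha or beta window. Over all promoters of the genome these strings were present in 0.105%, 0.501% and 3.17% of windows. They were read from the aligned stretches, each includes the core, and both strands were searched, so their shares describe these windows only. A longer CTCF-like motif was in 1 of the 52 windows (PCDHB9) and in 4.64% of all promoters. The YY1-like string AANATGGC was in 2 (PCDHB4 and PCDHB7), which is 3.85% against 6.58% of all promoters. PCDHGC3, the gene at the highest level in both lines, has 5 plus-strand copies of CGCT in its 250 upstream bases. PCDHGB5 has 3 there, PCDHGA7 and PCDHGB7 have 1 each and PCDHB8 has 0. Whether the number of copies bears on the level was not tested. The upstream bases of PCDHGC3 follow, chr5:141475716-141475965, with CGCT in capitals.
PCDHGC3: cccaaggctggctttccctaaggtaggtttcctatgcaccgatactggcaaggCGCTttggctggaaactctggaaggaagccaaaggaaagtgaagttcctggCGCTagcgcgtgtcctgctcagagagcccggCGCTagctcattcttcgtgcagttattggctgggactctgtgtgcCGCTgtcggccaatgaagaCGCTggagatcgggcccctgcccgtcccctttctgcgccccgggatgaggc

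The first constant exon of each cluster is 59 bases long. That of the gamma cluster, chr5:141494807-141494865, is listed for all 22 gamma genes, and that of the alpha cluster, chr5:140978949-140979007, for 15 of the 16 alpha genes, the exception being PCDHA14, which lies wholly inside an exon of PCDHA10.
gamma constant exon: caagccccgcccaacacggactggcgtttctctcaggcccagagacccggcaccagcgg
alpha constant exon: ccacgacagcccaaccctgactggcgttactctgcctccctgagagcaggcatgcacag

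A read pair within such an exon cannot be given to 1 gene, and counting without an option for overlaps leaves it out, so alpha and gamma counts come from the exons that are not shared. Those were 3251 of 5432 bases for PCDHGC3, 3262 of 5443 for PCDHGA7 and 2785 of 4966 for PCDHGB7. Beta genes overlap few others, and PCDHB13 keeps all of its 5061 bases. The genes are close paralogs and the counting did not use strand, so reads that fit several of them or an overlapping gene cannot be assigned with certainty.

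The alpha cluster was close to silent in every library, the beta cluster was expressed mainly in ACHN, and the gamma cluster was led by PCDHGC3 in both lines. Of the 16 alpha genes, 9 had no read pair in any of the 24 libraries (PCDHA2, PCDHA3, PCDHA6, PCDHA8, PCDHA10, PCDHA11, PCDHA12, PCDHA13 and PCDHA14), and the cluster held 36 read pairs in all libraries together. A library with 0 read pairs allows a level of up to 0.122 to 0.196 CPM (3 read pairs, counting error only). The alpha genes with the most read pairs were PCDHAC2, a C-type gene, with 14 read pairs in HK2 and 0 in ACHN, and PCDHA1 with 6 in HK2, all in shKDM5C replicate 1, and 3 in ACHN, all in Dsh replicate 1. PCDHA7 had 4 in ACHN and 3 in HK2, PCDHA9 had 2 in ACHN, PCDHA4 had 2 and PCDHA5 had 1 in HK2, and the C-type gene PCDHAC1 had 1, in ACHN. None of the alpha genes passed the filter on low counts in any comparison. In the knockdown comparisons 17 of the 54 genes were tested in ACHN and 12 in HK2, and the rest were too low.

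**Figure D1:**
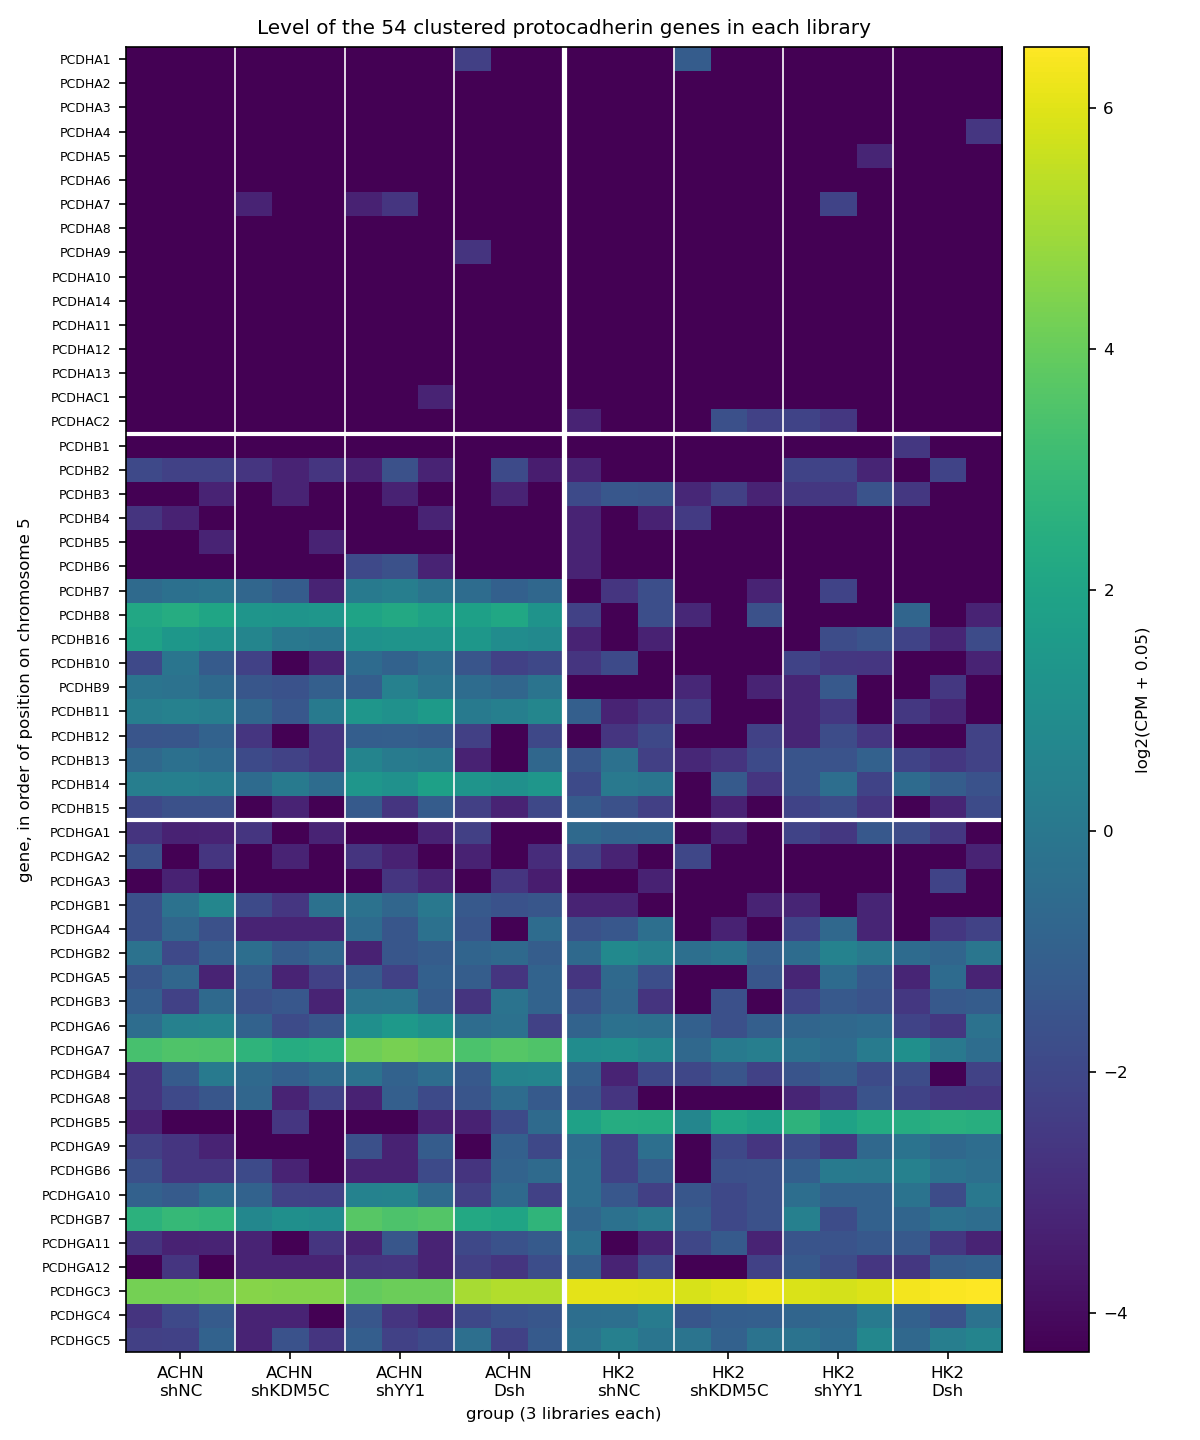
Level of each of the 54 genes (rows, in the order of their position) in each of the 24 libraries (columns, 3 per group, ACHN left and HK2 right), as log2 of CPM plus 0.05. The alpha rows are dark throughout, PCDHGC3 is the brightest row in both lines, beta genes are brighter in ACHN, and PCDHGB5 is bright in HK2.

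PCDHGC3 (ENSG00000240184) took 40.3% of the 13700 read pairs of the 54 genes in ACHN and 82.9% of 17731 in HK2. Per kilobase of unshared exon its mean level over 12 libraries was 7.33 CPM in ACHN and 21.4 in HK2. In ACHN the next genes per kilobase were PCDHGA7 at 3.56, PCDHGB7 at 2.32 and, from the beta cluster, PCDHB8 at 1.43, PCDHB16 at 0.623 and PCDHB14 at 0.381. In HK2 the next were PCDHGB5 at 1.70, PCDHGA7 at 0.370 and PCDHGB2 at 0.345, and the highest beta genes were PCDHB14 at 0.0909, PCDHB13 at 0.0520 and PCDHB3 at 0.0494. A mean level of at least 0.5 CPM over the 12 libraries of a line was reached by 14 of the 54 genes in ACHN (7 beta and 7 gamma) and by 8 in HK2, all gamma. Fewer cells that express a gene and less RNA per cell cannot be told apart in bulk RNA. The other C-type gamma genes were low: PCDHGC4 averaged 0.175 CPM in ACHN and 0.618 in HK2, and PCDHGC5 0.276 and 0.943.

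The first comparison asked how the lines differ under the control hairpin. Of the 54 genes 15 passed the filter, and of these 7 were higher and 5 lower in ACHN shNC than in HK2 shNC at an adjusted p under 0.05 (quasi-likelihood F test of edgeR, with the Benjamini-Hochberg method across every gene in the fit). Over all 16988 genes tested, 38.6% were higher and 38.0% lower, so a difference between the lines is common, and genes that passed the filter only through the line in which they are high had to differ. The counts are therefore a description.

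In the beta cluster, PCDHB8 was at 4.51, 5.18 and 4.06 CPM in the ACHN shNC libraries and at 0.164, 0 and 0.257 in HK2 shNC, without overlap. Its 257 read pairs against 8 give a ratio of 32.0 per library size, with a 95% exact counting interval of 15.99 to 74.9. PCDHB16 had 160 read pairs in the 3 ACHN libraries and 2 in the 3 HK2 libraries, a ratio of 79.7 with an interval of 21.7 to 663. PCDHB9 had 42 read pairs in ACHN and 0 in HK2, at least 13.9-fold higher against a floor of 3 read pairs over the group. PCDHB7 had 41 read pairs in ACHN and 7 in HK2, a ratio of 5.83 (2.59 to 15.4), and PCDHB11 had 69 and 11, a ratio of 6.25 (3.28 to 13.1). These 5 genes were low in HK2 and are given by their counts, with no test, and the intervals cover counting error only. PCDHB13 and PCDHB14, at log2 fold changes of 0.66 ± 0.50 and 0.76 ± 0.41 (SE), did not pass.

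In the gamma cluster the lines used different B-type genes. PCDHGB5 (ENSG00000276547) had 256 read pairs in HK2 shNC, 66, 93 and 97 by library, and 1 in ACHN shNC, a ratio of 257 with an interval of 45.7 to 10190. PCDHGB7 (ENSG00000254122) was at 6.13, 7.604 and 6.98 CPM in ACHN shNC and 0.547, 0.772 and 0.978 in HK2 shNC (log2 fold change 3.15 ± 0.23, adjusted p = 1.2e-12), and PCDHGA7 (ENSG00000253537) at 10.2, 11.4 and 11.3 against 1.86, 1.99 and 1.54 (2.60 ± 0.17, adjusted p = 6.92e-14). Neither pair of groups overlapped. All 3 C-type gamma genes were lower in ACHN: PCDHGC3 by a log2 fold change of -1.78 ± 0.06 (adjusted p = 6.57e-20), from 67.0, 66.3 and 65.4 CPM in HK2 to 19.1, 19.0 and 19.9 in ACHN. PCDHGC4 had 47 read pairs in HK2 and 13 in ACHN, a ratio of 3.63 (1.93 to 7.32), and PCDHGC5 had 55 and 15, a ratio of 3.68 (2.05 to 7.02). PCDHGB2 was lower too (-1.32 ± 0.46, adjusted p = 0.0114), with overlapping groups: 11, 31 and 25 read pairs in HK2 and 15, 4 and 8 in ACHN. It met the filter in more HK2 than ACHN libraries, so its difference is a description. Its call was lost without ACHN shNC replicate 2 (-0.97, adjusted p = 0.102) and without HK2 shNC replicate 2 (-0.99, adjusted p = 0.0844).

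Knockdown of KDM5C in ACHN was followed by lower levels of beta and gamma genes and a small rise of PCDHGC3. Of 13 genes tested, 9 fell, 6 of them beta (PCDHB7, PCDHB8, PCDHB9, PCDHB11, PCDHB13 and PCDHB16) and 3 gamma (PCDHGA6, PCDHGA7 and PCDHGB7). Only PCDHGC3 rose, and PCDHB14, PCDHGB1 and PCDHGB4 did not pass. Over all genes tested 27.7% fell and 28.9% rose. With DESeq2 7 genes passed, 6 lower, and PCDHB7, PCDHB9 and PCDHB11 did not (adjusted p = 0.112, 0.0977 and 0.0726). Without the filter on low counts 13 of 37 passed. A gene that passed the filter only through shNC had to be lower in shKDM5C. This applied to PCDHB7, PCDHB9, PCDHB11, PCDHB13 and PCDHGA6, so their falls are a description. The median log2 fold change was -1.11 over the 13 genes, these included, and -0.01 over all genes. PCDHB13, PCDHGB7 and PCDHGA6 were also past the limit of 1.5 on the log2 scale, 3 of 13 against 3.34% of all genes. Among these only PCDHGB7 also met the filter in shKDM5C. The beta genes together were at 13.8, 14.3 and 12.02 CPM in shNC and 6.55, 5.74 and 6.04 in shKDM5C, and the gamma genes other than PCDHGC3 at 20.9, 24.4 and 25.8 against 12.4, 9.78 and 10.6, in both cases without overlap.

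PCDHGB7 fell the most among the well-covered genes, from 117, 141 and 129 read pairs in shNC to 29, 37 and 34 in shKDM5C, or from 6.13, 7.604 and 6.98 CPM to 1.57, 2.08 and 1.85 (log2 fold change -1.93 ± 0.18, adjusted p = 7.41e-10). PCDHGA7, of type A, went from 10.2, 11.4 and 11.3 CPM to 6.50, 5.23 and 5.61 (-0.93 ± 0.12, adjusted p = 2.64e-07). PCDHGA6, directly upstream of PCDHGA7, went from 13, 24 and 26 read pairs to 9, 4 and 6 (-1.69 ± 0.42, adjusted p = 0.00124). None of these groups overlapped, and all 3 calls held in each of the 6 fits that left out 1 library. PCDHGA6 passed the filter only through shNC, so its fall is a description.

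Among beta genes, PCDHB8 fell from 4.51, 5.18 and 4.06 CPM to 2.44, 2.36 and 2.56 (-0.91 ± 0.18, adjusted p = 0.00011) and PCDHB16 from 3.77, 2.59 and 2.17 to 1.46, 0.956 and 0.871 (-1.39 ± 0.27, adjusted p = 0.000107). PCDHB13 went from 11, 14 and 12 read pairs to 4, 3 and 2 (-1.97 ± 0.51, adjusted p = 0.00175). The 3 remaining beta calls were weak and, like that of PCDHB13, came from genes that passed the filter only through shNC. PCDHB7 (-1.15 ± 0.48, adjusted p = 0.0459) kept its call only without shKDM5C replicate 1. PCDHB11 (-0.95 ± 0.36, adjusted p = 0.0278) kept it only without shKDM5C replicate 3. PCDHB9 (-1.11 ± 0.42, adjusted p = 0.0277) lost it without shNC replicate 1 or 2 or shKDM5C replicate 1 or 2. With a library left out, the values of these genes ran from -1.70 to -0.65 for PCDHB7, from -1.48 to -0.65 for PCDHB11 and from -1.30 to -0.98 for PCDHB9. PCDHGC3 rose slightly, from 19.1, 19.0 and 19.9 CPM to 23.4, 22.6 and 22.8, without overlap (0.23 ± 0.07, adjusted p = 0.00738).

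**Figure D2:**
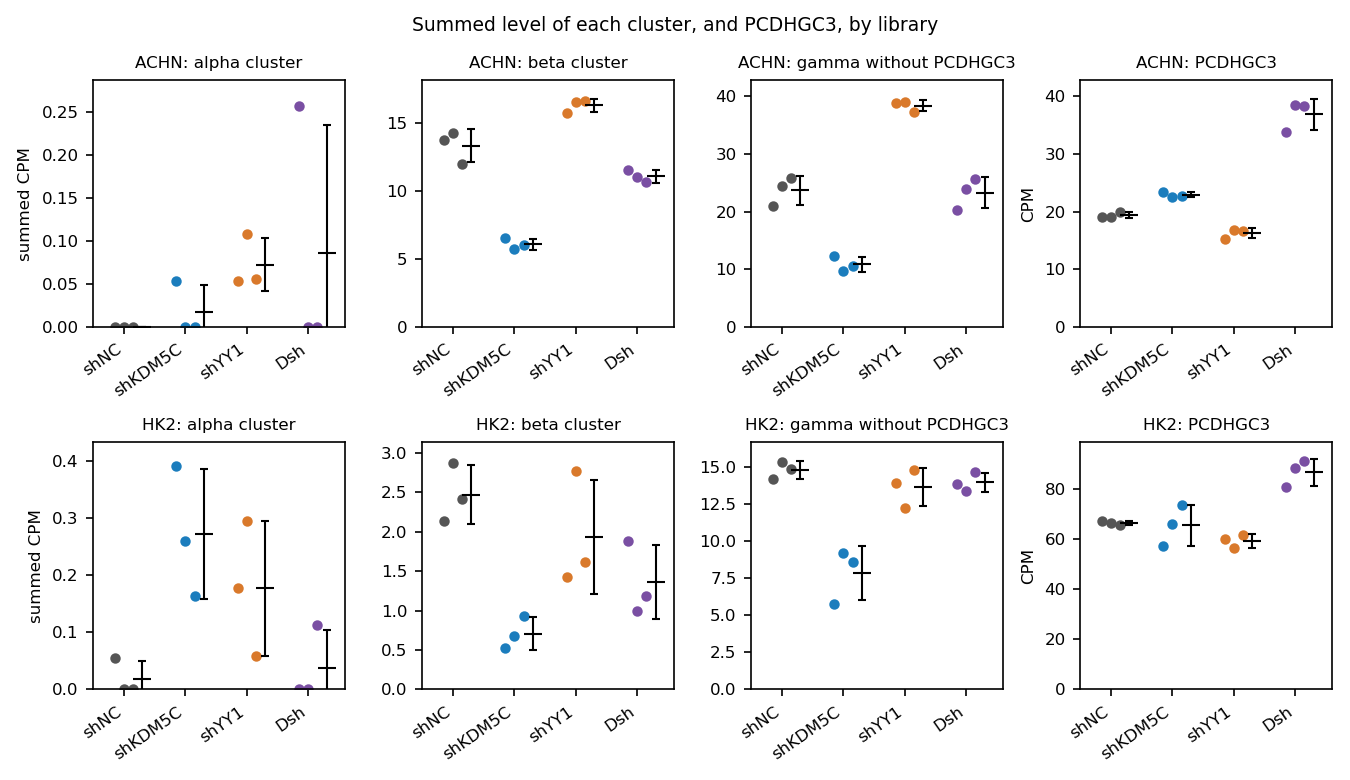
Summed CPM of the alpha cluster, the beta cluster and the gamma cluster without PCDHGC3, and CPM of PCDHGC3, in ACHN (top) and HK2 (bottom), with each library as a point and the mean ± SD of 3 libraries beside it; vertical scales start at 0 and differ between panels. In ACHN the beta sum of shKDM5C lies between 5.74 and 6.55 CPM, below the 12.02 to 14.3 of shNC, and PCDHGC3 is highest in Dsh in both lines.

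Knockdown of YY1 in ACHN was followed by higher levels of several of these genes. Of 17 tested, 6 rose (PCDHB11, PCDHB14, PCDHGA6, PCDHGA7, PCDHGA10 and PCDHGB7), PCDHGC3 fell, and 10 did not pass, while 24.2% of all genes rose and 24.5% fell. The median log2 fold change was 0.67 over the 17 genes and -0.01 over all genes tested. PCDHGA10 passed the filter only through shYY1 and so had to be higher there. PCDHB10, PCDHGA4, PCDHGB3 and PCDHGB4 met it in more shYY1 than shNC libraries, so the median is a description. The sum over the gamma genes other than PCDHGC3 was 38.3 ± 0.95 CPM (SD, n = 3), above the 20.9 to 25.8 of shNC, and the beta genes summed to 15.8, 16.5 and 16.6, above the 12.02 to 14.3 of shNC.

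PCDHGA7 rose to 17.6, 19.5 and 17.3 CPM (log2 fold change 0.71 ± 0.09, adjusted p = 3.28e-08) and PCDHGB7 to 12.9, 11.1 and 12.2 (0.78 ± 0.11, adjusted p = 3.59e-07). PCDHGA6 rose from 13, 24 and 26 read pairs to 39, 53 and 38 (1.04 ± 0.28, adjusted p = 0.00192). Their shKDM5C values, given above, were set against the same shNC libraries. In the beta cluster PCDHB14 went from 1.21, 1.24 and 1.14 CPM to 2.56, 2.21 and 3.53 (1.18 ± 0.25, adjusted p = 0.000174) and PCDHB11 from 1.21, 1.29 and 1.19 to 2.56, 2.21 and 2.91 (1.03 ± 0.24, adjusted p = 0.000646). No library of these 5 genes crossed between groups. PCDHB8 and PCDHB16, the leading beta genes, were at -0.22 ± 0.16 and -0.32 ± 0.22 and did not pass. PCDHGA10 (1.14 ± 0.39, adjusted p = 0.0143) had overlapping groups, and its call was lost without shNC replicate 2 (0.98), shYY1 replicate 1 (0.99) or shYY1 replicate 2 (0.94), at adjusted p = 0.0739, 0.0735 and 0.0862. PCDHGC3 fell from 19.1, 19.0 and 19.9 CPM to 15.3, 16.9 and 16.7, without overlap (-0.27 ± 0.08, adjusted p = 0.00362).

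**Figure D3:**
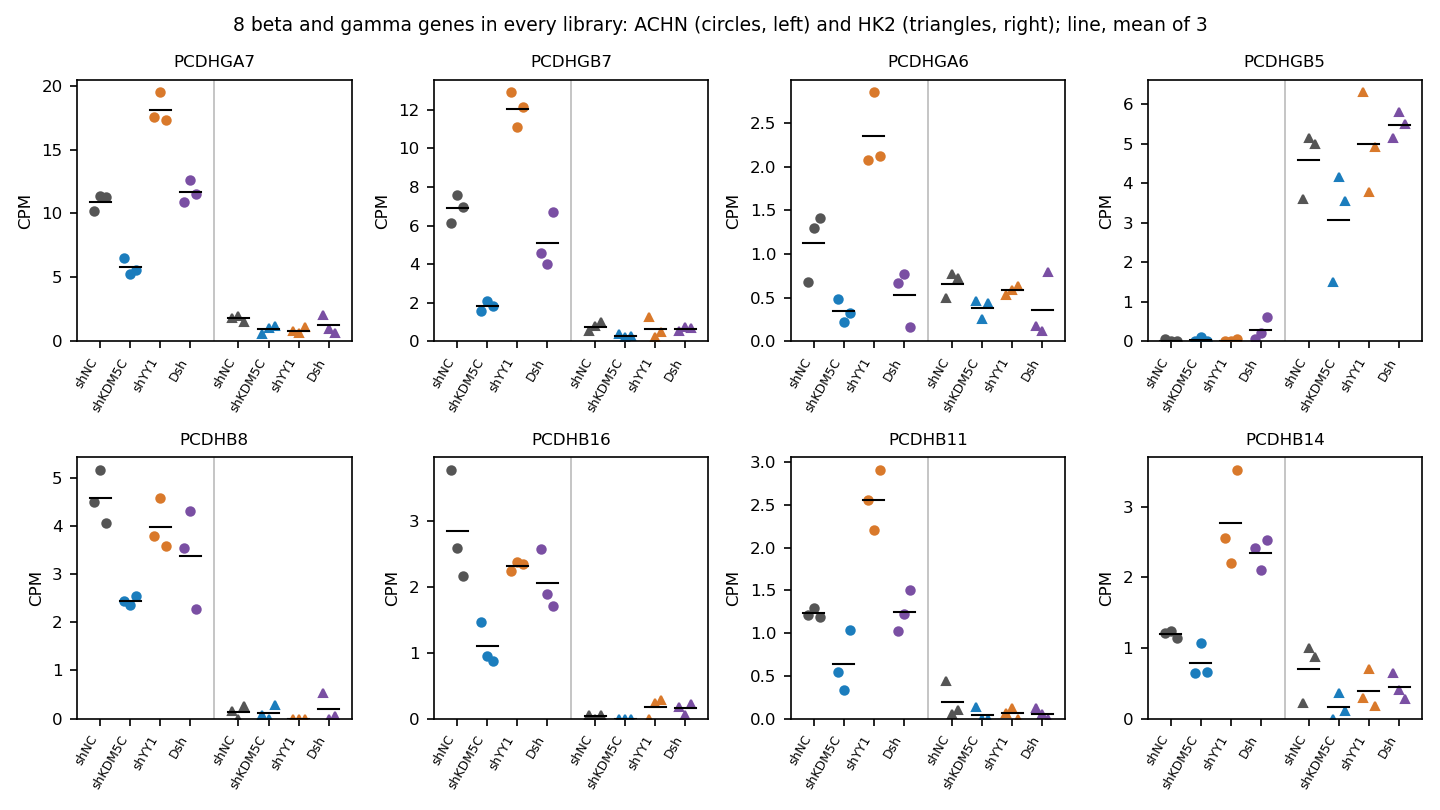
CPM of 8 beta and gamma genes in every library (points; horizontal line, mean of 3) for ACHN on the left of each panel and HK2 on the right. Within ACHN, PCDHGA7, PCDHGB7 and PCDHGA6 have their lowest means in shKDM5C and their highest in shYY1, PCDHB8 and PCDHB16 are near 0 in HK2, and PCDHGB5 is near 0 in ACHN.

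With both genes knocked down in ACHN, PCDHGC3 rose and few of the other genes passed. Of 12 genes tested, 2 rose (PCDHB14 and PCDHGC3), PCDHGA6 fell and 9 did not pass, against 30.7% of all genes rising and 32.0% falling. PCDHGC3 went from 19.1, 19.0 and 19.9 CPM to 33.7, 38.4 and 38.3, without overlap (log2 fold change 0.94 ± 0.08, adjusted p = 4.48e-09). PCDHB14 rose to 2.42, 2.10 and 2.53 CPM (0.99 ± 0.25, adjusted p = 0.00215). PCDHGA7 was at 10.9, 12.6 and 11.5 CPM (0.10 ± 0.11) and PCDHGB7 at 4.58, 3.99 and 6.72 (-0.41 ± 0.18, adjusted p = 0.0507), and neither passed. PCDHB13 was at -1.46 ± 0.66 and PCDHGB4 at 1.11 ± 0.56, the largest values that did not pass (adjusted p = 0.0637 and 0.0952), and PCDHB8 and PCDHB16 were at -0.45 ± 0.21 and -0.47 ± 0.25. PCDHGA6 (-1.12 ± 0.46, adjusted p = 0.0424) overlapped its controls, and its call was lost without shNC replicate 2 (-1.01, adjusted p = 0.139), shNC replicate 3 (-0.93, adjusted p = 0.167) or Dsh replicate 3 (-0.63, adjusted p = 0.211). The number of calls depended on the fit. With all 4 ACHN groups fitted together 7 genes passed, 5 lower (PCDHB8, PCDHB13, PCDHGA6, PCDHGB1 and PCDHGB7) and 2 higher. PCDHGA6 and PCDHB13 met the filter on low counts in more shNC than Dsh libraries, so their falls are a description. Dsh replicate 3, the deepest library, held 15 of the 20 read pairs of PCDHGB5 in the group, 14 of 15 of PCDHB13, and 165 read pairs of PCDHGB7 against 89 and 72 in the others. Without that library 4 genes passed, and without ACHN shNC replicate 1 or Dsh replicate 1 the numbers were 5 and 6.

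The interaction asked whether the Dsh level differs from the sum, on the log2 scale, of the 2 single knockdown effects. YY1 was less depleted in Dsh than in shYY1 (means of 97.0 and 76.8 CPM in ACHN, 74.2 and 63.9 in HK2). Dsh cells were also made with a further, GFP-marked hairpin. In either line, an interaction cannot be told apart from these differences. In ACHN 18 genes were tested, and 3 had a positive interaction at an adjusted p under 0.05, against 26.8% of all genes. For PCDHGC3 it was 0.95 ± 0.10 (adjusted p = 2.11e-08), with single effects of 0.23 and -0.27 and a Dsh effect of 0.94. For PCDHB16 it was 1.21 ± 0.37 (adjusted p = 0.00802), its level in Dsh being 2.57, 1.88 and 1.71 CPM. PCDHGB7 had an interaction of 0.71 ± 0.25 (adjusted p = 0.0181), which lost its call without Dsh replicate 3 (0.44, adjusted p = 0.109) or shKDM5C replicate 1 (0.63, adjusted p = 0.0591).

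HK2 cells gave few calls, and these lay in PCDHGC3 and PCDHGA7. In shKDM5C against shNC no gene of the 7 tested passed with edgeR or with DESeq2, 3 had an unadjusted p under 0.05 with edgeR (PCDHGA7, PCDHGB7 and PCDHGC4), and 0.656% of all genes fell and 0.668% rose. All 3 were lower in every shKDM5C library than in every shNC library: PCDHGA7 went from 34, 36 and 30 read pairs to 9, 20 and 22 (log2 fold change -0.89 ± 0.34, adjusted p = 0.288), PCDHGB7 from 10, 14 and 19 to 6, 4 and 5 (-1.36 ± 0.49, adjusted p = 0.27) and PCDHGC4 from 13, 13 and 21 to 5, 8 and 8 (-1.04 ± 0.41, adjusted p = 0.303). PCDHGB7 and PCDHGC4 passed the filter only through shNC and so had to be lower. The 3 genes were picked by their unadjusted p, and the lack of overlap adds nothing to it. Gamma genes other than PCDHGC3 summed to 14.2, 15.3 and 14.9 CPM in shNC and 5.74, 9.17 and 8.57 in shKDM5C, the first of these being the library that stands apart, and beta genes to 2.13, 2.87 and 2.42 against 0.522, 0.677 and 0.928. Leaving out replicate 1 of shKDM5C gave no call among 10 genes tested, with PCDHGA7 at -0.69 ± 0.39, PCDHGB7 at -1.66 ± 0.68, PCDHGC4 at -0.97 ± 0.59 and PCDHGC3 at 0.063 ± 0.064 (adjusted p from 0.0847 to 0.545). PCDHGC3 itself was at 57.2, 65.9 and 73.5 CPM in shKDM5C, on both sides of the 65.4 to 67.0 of shNC (0.02 ± 0.11).

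In HK2 shYY1, 11 genes were tested and 2 fell, against 14.7% of all genes. PCDHGA7 fell from 1.86, 1.99 and 1.54 CPM to 0.772, 0.648 and 1.10 (-1.09 ± 0.38, adjusted p = 0.0327), and PCDHGC3 from 67.0, 66.3 and 65.4 to 59.8, 56.2 and 61.6 (-0.17 ± 0.06, adjusted p = 0.0476). Neither gene's groups overlapped, but both calls were lost without shNC replicate 1 (-1.07 and -0.16), shNC replicate 2 (-1.02 and -0.17), shYY1 replicate 1 (-1.04 and -0.17) or shYY1 replicate 2 (-0.95 and -0.14), and that of PCDHGC3 also without shNC replicate 3 (-0.18). With all 4 HK2 groups in the fit neither passed (adjusted p = 0.179 and 0.376). PCDHGB5, the leading alternate gamma gene of HK2, was at 6.30, 3.77 and 4.91 CPM against 3.61, 5.13 and 4.99 in shNC (0.12 ± 0.21) and did not pass.

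In HK2 Dsh, PCDHGC3 rose and the other 11 genes tested did not pass, while 25.5% of all genes rose. PCDHGC3 was at 80.6, 88.3 and 91.0 CPM, above the 65.4 to 67.0 of shNC (0.39 ± 0.06, adjusted p = 2.01e-06), and the call held in each fit that left out 1 library. Its interaction in HK2 was 0.53 ± 0.13 (adjusted p = 0.0218), the only one of 13 genes to pass, against 5.21% of all genes. That call was lost without any of the 3 shNC libraries, shYY1 replicates 1 or 2 or Dsh replicates 2 or 3, with values between 0.495 and 0.546 and adjusted p between 0.0547 and 0.068. Without shKDM5C replicate 1 it was 0.495 ± 0.092 (adjusted p = 0.000132), and PCDHGA9 passed as well (2.81 ± 1.07, adjusted p = 0.049). PCDHGB5 was at 5.13, 5.81 and 5.50 CPM in Dsh (0.26 ± 0.19) and did not pass.

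**Figure D4:**
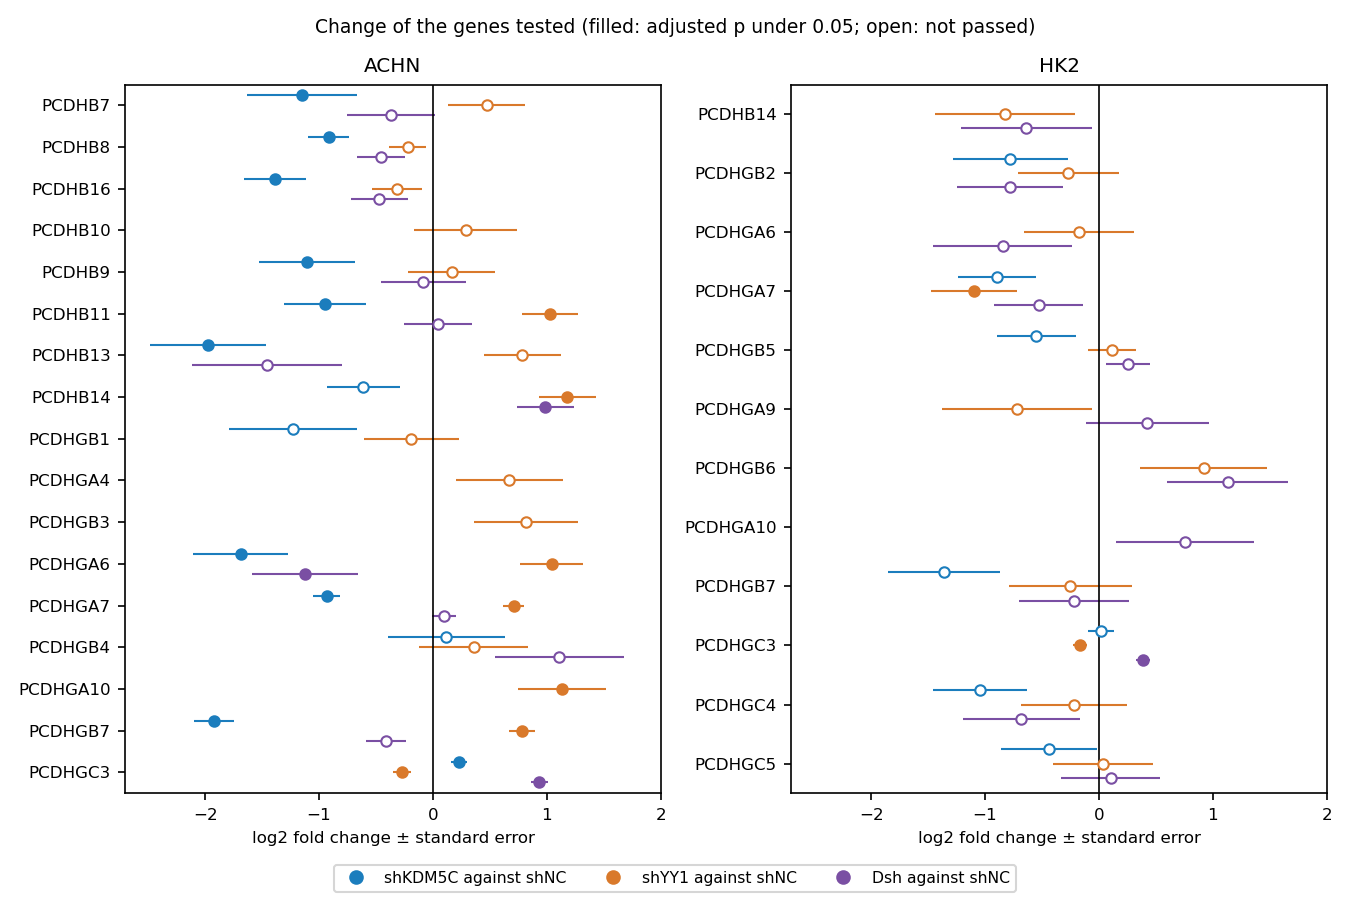
Log2 fold change ± standard error (horizontal axis) of each gene tested in shKDM5C, shYY1 and Dsh against shNC, in ACHN (left) and HK2 (right); filled points passed an adjusted p under 0.05. In ACHN 9 filled points of shKDM5C lie left of 0 and 6 of shYY1 lie right of 0, and in HK2 the 3 filled points are those of PCDHGA7 and PCDHGC3.

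The effects were also set against each other between the lines. For shKDM5C no gene of 17 tested differed between ACHN and HK2 at an adjusted p under 0.05 with edgeR or DESeq2, against 11.9% of all genes, and PCDHB9 alone had an unadjusted p under 0.05. PCDHGA7 and PCDHGB7, which fell in ACHN, had differences of -0.05 ± 0.32 and -0.54 ± 0.45 and PCDHGC3 0.23 ± 0.12. Without HK2 shKDM5C replicate 1 these were -0.24 ± 0.31, -0.26 ± 0.64 and 0.17 ± 0.09, and no gene of 22 passed. For shYY1, 4 of 23 genes had a more positive effect in ACHN, a share near the 16.6% of all genes. PCDHGA7, higher in ACHN shYY1 and lower in HK2 shYY1, differed by 1.81 ± 0.28 (adjusted p = 5.5e-06) and kept its call in all 12 fits that left out 1 library. PCDHB14 differed by 2.02 ± 0.63 (adjusted p = 0.0134), a call lost without HK2 shNC replicate 2 (1.69, adjusted p = 0.0609). PCDHB8 and PCDHB11 differed by 4.25 ± 1.51 and 2.69 ± 0.97, but had at most 8 read pairs in any HK2 library of those groups, and each lost its call in 5 of the 12 fits: PCDHB8 without HK2 shNC replicate 1 or 3 or any HK2 shYY1 library (3.49 to 4.26), and PCDHB11 without replicate 3 of ACHN shNC or shYY1, HK2 shNC replicate 1 or HK2 shYY1 replicate 1 or 3 (1.45 to 2.69). For Dsh, 3 of 20 genes had a more positive effect in ACHN, against 23.3% of all genes: PCDHGC3 by 0.57 ± 0.10 (adjusted p = 1.3e-05), PCDHB14 by 1.64 ± 0.60 (adjusted p = 0.0263) and PCDHGB5 by 3.50 ± 1.06 (adjusted p = 0.00764). PCDHB14 lost its call without ACHN shNC replicate 1 or 3, HK2 shNC replicate 2 or 3, or replicate 3 of ACHN or HK2 Dsh (1.30 to 1.61). PCDHGB5 was at 2.27 (adjusted p = 0.126) without ACHN Dsh replicate 3.

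Beyond the clusters, 4 lists of related genes were read beside them. The first list held 11 non-clustered protocadherins, which are single genes outside the clusters. In ACHN shKDM5C 7 of them were tested, and 3 fell (PCDH1 at -1.60 ± 0.29, PCDH9 and PCDH18) and 2 rose (PCDH7 and PCDH20). In ACHN shYY1 6 were tested, and PCDH1, PCDH9 and PCDH18 fell and none rose. In HK2 Dsh 2 of 5 rose (PCDH1 and PCDH10) and 2 fell (PCDH7 and PCDH9). Their medians were -0.22, -0.80 and 0.01, against -0.01, -0.01 and 0.00 over all genes. Of the 77 other named genes within 500 kilobases of the clusters, PCDH1 and PCDH12 among them, 25 were tested in each knockdown comparison. In ACHN shKDM5C 6 fell and 10 rose (median 0.06), and in ACHN shYY1 9 fell and 4 rose (median -0.07). For all 4 lists, the shares of all genes that fell and rose were 27.7% and 28.9% in ACHN shKDM5C, 24.5% and 24.2% in ACHN shYY1, 32.0% and 30.7% in ACHN Dsh and 24.3% and 25.5% in HK2 Dsh, and nothing is read from a list's count beyond these. TAF7, a TFIID subunit gene that lies between the beta and gamma clusters, rose in ACHN shKDM5C (0.35) and was at 0.03 in ACHN shYY1, where it did not pass.

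All 21 genes of chromatin architecture and silencing were tested. In ACHN shKDM5C 2 fell and 10 rose (median 0.08), in shYY1 5 fell and 7 rose (0.02), and in Dsh 9 fell and 5 rose (-0.13). SMCHD1, the repressor named above, rose from 59.9 CPM to 77.2 in ACHN shKDM5C (0.35) and fell to 35.4 in shYY1 (-0.78), and rose to 67.4 in Dsh (0.18). In HK2 it was at 88.7 CPM in shNC and fell to 74.3 in shYY1 (-0.26) and 74.8 in Dsh (-0.25), while in shKDM5C it was at 0.33 ± 0.28 and did not pass. CTCF was at 0.06 and 0.02 in the single knockdowns and did not pass, and fell in Dsh (-0.31), as did the cohesin genes RAD21, SMC1A and SMC3 (-0.26, -0.83 and -0.51) and the maintenance methylation genes DNMT1 and UHRF1 (-0.44 and -0.98). Other genes of the list rose in Dsh, TRIM28 (0.64) and MAU2 (0.423) among them, and STAG2 and NIPBL did not pass there. In ACHN shYY1 RAD21 and SMC3 rose (0.465 and 0.201) while STAG1 and STAG2 fell (-0.202 and -0.242). In ACHN shKDM5C SMC1A and DNMT1 rose (0.303 and 0.257). In HK2 Dsh 11 of the 21 fell and 2 rose (median -0.12). Whether any of these levels bears on the protocadherins was not tested. Among 17 partners of the protocadherin tails, PTK2B, a kinase of the focal adhesion family that gamma and alpha tails inhibit, fell in ACHN shKDM5C (-1.17) and rose in shYY1 (1.21), and RET, a receptor kinase, fell in shKDM5C and Dsh (-2.19 and -4.53). Of the 17 partners, all tested in ACHN, 6 fell and 6 rose in ACHN shKDM5C, 6 fell and 7 rose in shYY1, and 9 fell and 7 rose in Dsh.

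Neurons are the cells best known for these genes, so 8 neuron markers were summed. They ran from 13.8 to 15.1 CPM in ACHN shNC, 23.95 to 27.8 in shKDM5C, 17.4 to 18.8 in shYY1 and 73.9 to 76.9 in Dsh, with NEFL the highest on average in ACHN, and from 9.27 to 15.8 in HK2 over all groups. ELAVL4 and STMN2 were at 0 in all libraries. The 5 leukocyte markers summed to at most 0.528 CPM and the 4 endothelial markers to at most 1.78 in any library. The 6 fibroblast markers summed to 555 to 605 CPM in ACHN shNC and to 48.3 to 53.0 in shKDM5C, 156 to 163 in shYY1 and 128 to 145 in Dsh, nearly all of it COL1A1, while LUM was at 0 in ACHN and COL1A2 and COL3A1 were below 0.1 CPM on average in both lines. In HK2 the fibroblast markers summed to 40.6 to 42.7 CPM in shNC, 28.0 to 37.0 in shKDM5C, 54.2 to 62.3 in shYY1 and 92.6 to 102 in Dsh. There LUM and COL1A1 made up most of the sum, with means over all HK2 libraries of 29.1 and 26.3 CPM, and DCN averaged 2.02. The renal epithelial markers summed to 2255 to 2297 CPM in ACHN shNC, 2537 to 2647 in shKDM5C, 2669 to 2758 in shYY1 and 1538 to 1692 in Dsh, and in HK2 to 2754 to 2862, 2186 to 2916, 1865 to 1990 and 1383 to 1489. The proximal tubule markers summed to 72.9 to 75.8 CPM in ACHN shNC and 120 to 134 in Dsh, and in HK2 to 194 to 214 in shNC, 147 to 154 in shYY1 and 220 to 225 in Dsh. The part of these shifts in the protocadherin results was not tested.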

How the data were processed

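RNA-seq libraries of ACHN and HK2 cells, 3 per group, were paired-end. The authors aligned reads with HISAT2 (version 2.0.5 per the submitters' processing notes) to hg38 and deposited raw counts of read pairs per gene, made with featureCounts (version 2.0.1 per the file headers, 1.5.0-p3 per those notes) from the Ensembl release 84 annotation. No strand or multiple-overlap option is shown, so pairs in shared exons were left out. Genes without a symbol, 4117 in all, held 0.243% of counts.

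Levels are CPM with TMM factors over all 24 libraries, divided per kilobase by exon bases that no other gene covers. Each comparison was fitted to all genes passing filterByExpr with edgeR 4.0.16 in R 4.3.3 (TMM, quasi-likelihood F test, Benjamini-Hochberg adjustment, threshold 0.05); standard errors are the estimate divided by the root of F. DESeq2 1.42.0, its size factors, no filter, the replicate block, all groups in 1 fit, each library left out and full exon length were alternatives. Floors and intervals cover counting error only. The members and the gene lists were chosen with earlier results of these data known. Named by rule were the leading genes per kilobase of each cluster, the C-type genes, the largest calls without overlap and with at least 30 read pairs, and the largest interactions and differences. Every other call was named after its value was seen.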

Additional observations from a re-analysis of the deposited data

Results flagged for a closer look

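Effects of the same knockdown differed between ACHN and HK2 in a test of the difference itself (edgeR's quasi-likelihood test, adjusted over all genes). For shYY1 this held for 4 of 23 genes, a share near the 16.6% of all genes, each with the more positive effect in ACHN: PCDHB8 by a log2 difference of 4.25, PCDHB11 by 2.69, PCDHB14 by 2.02 and PCDHGA7 by 1.81. For Dsh it held for 3 of 20 genes, against 23.3% of all genes, again more positive in ACHN: PCDHB14 by 1.64, PCDHGB5 by 3.50 and PCDHGC3 by 0.57. PCDHB8 and PCDHB11 had 8 and 11 read pairs in the HK2 shNC libraries and 0 and 3 in HK2 shYY1, and PCDHGB5 had 1 in ACHN shNC, so the fitted sizes of these 3 rest on groups at or near 0 and support nothing. The calls of PCDHGA7 and PCDHGC3 were kept in all 12 fits that left out 1 library, and each of the others was lost in at least 1.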

How the results depend on the processing

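The counts of genes passing depended most on the fit in ACHN Dsh, with 3 genes, 9 without the filter on low counts and 7 with all 4 groups fitted together. In HK2 shYY1 the 2 calls became 1 with DESeq2, 1 without the filter and 0 with all 4 groups, and in the HK2 interaction 1 became 2 with DESeq2 and 0 without the filter. With 1 library left out the counts ran from 7 to 10 in ACHN shKDM5C, 6 to 7 in ACHN shYY1, 2 to 6 in ACHN Dsh, 0 to 2 in HK2 shYY1, 1 to 2 in HK2 Dsh, 12 to 15 between the lines, 3 to 4 in the ACHN interaction, 0 to 2 in the HK2 interaction, 3 to 4 for the shYY1 difference and 1 to 4 for the Dsh difference, and stayed at 0 for HK2 shKDM5C and the shKDM5C difference. PCDHGC3 in HK2 shKDM5C changed sign, to -0.012 without the filter and -0.050 without shKDM5C replicate 3, and passed in neither. With 1 library left out its value ran from -0.050 to 0.063. Of 49 named values, 6 lost their call with DESeq2, 4 without the filter and 5 of 24 with all 4 groups. Per full exon length PCDHGC3 held 36.7% of the summed level in ACHN, against 39.3% per unshared length. The causes were not tested.

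Same-numbered libraries did not deviate together (correlations of -0.089 to 0.042), so the numbers were not taken as pairs. With the replicate block the counts were 11, 7 and 7 in ACHN shKDM5C, shYY1 and Dsh, 0, 2 and 1 in HK2, 12 between the lines, 4 and 1 in the ACHN and HK2 interactions, and 0, 4 and 3 for the differences.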
